A study of Mus musculus with 8 samples.

Results

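The genes described are 4 stefins (Stfa1, Stfa2, Stfa3 and Stfa2l1), 3 serum amyloid A genes (Saa1, Saa2 and Saa3), the lipocalin Lcn2, haptoglobin (Hp) and the secretory leukocyte protease inhibitor Slpi. They are 10 of the 14783 genes tested. They are defence proteins chosen by the difference in array level between hair loss and normal skin of the mutants, taken within title number, in which Saa3 and Stfa1 were among the largest. Their values in that contrast are therefore a description without a test. A probe was taken for a gene by its RefSeq accession, and each of the 10 genes had 1 probe.

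RNA from 8 skin samples of C57BL/6N mice was measured on 1-colour (Cy3) Agilent arrays, 1 array per sample. Hair loss skin of Cchcr1 mutants gave 2 samples, skin of the mutants without hair loss 4, and normal skin of the wild type 2. The mutants carry an allele of Cchcr1, a gene for a coiled-coil protein, made by CRISPR/Cas9 editing, and the study describes their patchy hair loss as resembling alopecia areata. Hair loss replicate 1 and mutant normal skin replicates 1 and 2 carry the title start Mutant097, hair loss replicate 2 and mutant normal skin replicates 3 and 4 carry Mutant113, and both wild type samples carry Wild001. Ages and the exact edit are not analysed here. Nothing in the labels says whether samples with the same title start came from 1 mouse, so p-values measure only the spread between these samples, which may be technical.

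Serum amyloid A, haptoglobin and lipocalin 2 belong to the acute phase response, in which interleukin 1, interleukin 6 and related cytokines induce the genes through NF-kappaB, STAT3 and C/EBP factors. Saa1, Saa2 and Hp are best known as liver products that reach the blood, whereas Saa3 and Lcn2 are also made by inflamed epithelium, macrophages and fat cells. Stefins are cytosolic inhibitors of papain-like cysteine proteases such as cathepsins B, H and L. The mouse carries a cluster of stefin genes where humans have a single stefin A, and in human skin stefin A is a component of the cornified envelope. Slpi inhibits neutrophil elastase and cathepsin G and is secreted at epithelial surfaces.

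The 4 stefin genes lie in 1 cluster on chromosome 16, in the order Stfa2l1, Stfa1, Stfa2, Stfa3, between and beside the relatives Csta1, Cstdc4, Csta3, Csta2, Cstdc6 and Cstdc5. Saa3, Saa4, Saa1 and Saa2 lie in 1 cluster on chromosome 7. The 250 bases upstream of the annotated start are shown for 7 genes, from RefSeq (GRCm38.p6), 5′ to 3′ on the strand of the gene, because the stefins, and Saa1 with Saa2, are near copies, while Saa3 differs from its neighbours. Of the 10 genes, 9 had such a sequence. Capitals mark matches to TTNNGNAA, a short form of the C/EBP binding motif, searched on both strands. The windows are chr16:36156561-36156810 on the plus strand for Stfa2l1, chr16:36276898-36277147 on the plus strand for Stfa1, chr16:36408364-36408613 on the minus strand for Stfa2, chr16:36455393-36455642 on the minus strand for Stfa3, chr7:46742981-46743230 on the minus strand for Saa1, chr7:46751583-46751832 on the plus strand for Saa2 and chr7:46715677-46715926 on the minus strand for Saa3.
Stfa2l1: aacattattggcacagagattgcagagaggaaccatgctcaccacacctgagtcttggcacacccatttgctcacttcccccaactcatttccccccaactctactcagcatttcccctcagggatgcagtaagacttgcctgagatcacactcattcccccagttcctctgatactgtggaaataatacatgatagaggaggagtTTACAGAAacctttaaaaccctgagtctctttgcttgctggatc
Stfa1: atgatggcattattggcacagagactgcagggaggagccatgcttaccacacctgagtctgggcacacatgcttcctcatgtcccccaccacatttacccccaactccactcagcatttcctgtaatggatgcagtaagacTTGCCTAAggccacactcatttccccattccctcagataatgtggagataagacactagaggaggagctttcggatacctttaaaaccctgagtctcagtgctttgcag
Stfa2: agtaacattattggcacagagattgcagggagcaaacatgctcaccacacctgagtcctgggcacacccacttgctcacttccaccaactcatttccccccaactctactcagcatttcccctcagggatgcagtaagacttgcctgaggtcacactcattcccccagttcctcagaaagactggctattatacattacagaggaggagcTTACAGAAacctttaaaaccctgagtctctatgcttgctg
Stfa3: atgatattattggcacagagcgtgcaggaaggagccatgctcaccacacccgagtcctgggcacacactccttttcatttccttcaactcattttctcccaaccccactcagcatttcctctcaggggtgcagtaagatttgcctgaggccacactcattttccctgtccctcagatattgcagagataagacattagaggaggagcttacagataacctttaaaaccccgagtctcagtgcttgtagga
Saa1: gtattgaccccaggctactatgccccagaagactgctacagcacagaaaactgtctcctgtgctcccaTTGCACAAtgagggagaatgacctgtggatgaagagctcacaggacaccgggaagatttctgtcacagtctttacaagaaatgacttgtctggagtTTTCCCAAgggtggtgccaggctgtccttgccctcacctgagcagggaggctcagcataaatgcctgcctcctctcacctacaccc
Saa2: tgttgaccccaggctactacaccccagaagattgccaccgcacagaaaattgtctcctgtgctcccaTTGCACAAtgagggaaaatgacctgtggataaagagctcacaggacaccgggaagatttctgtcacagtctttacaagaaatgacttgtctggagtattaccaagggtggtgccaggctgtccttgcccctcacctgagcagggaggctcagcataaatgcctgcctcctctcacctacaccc
Saa3: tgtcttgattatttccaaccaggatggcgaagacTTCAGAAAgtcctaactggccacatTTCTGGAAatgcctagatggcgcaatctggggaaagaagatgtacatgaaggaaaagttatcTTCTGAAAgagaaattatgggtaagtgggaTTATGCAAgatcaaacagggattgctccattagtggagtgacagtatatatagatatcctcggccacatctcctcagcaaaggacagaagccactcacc

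The upstream windows of Saa1 and Saa2 were identical at 94.8% of 251 aligned positions. Those of Stfa2 and Stfa2l1 matched at 89.4%, Stfa1 and Stfa3 at 83.5%, and the other 4 pairs of stefins at 80.4% to 81.0%. Saa3 matched Saa1 and Saa2 at 52.2% and 52.4%, in the range of unrelated members such as Lcn2 and Saa1 (53.5%). The TTNNGNAA match was present in 8 of the 9 windows, all but Stfa3, and in 36.8% of 32851 promoter windows of the same length. Near copies were counted separately. Saa1 and Saa2 shared a match of the same bases, as did Stfa2 and Stfa2l1, so the 8 windows are not independent. The STAT motif TTCNNNGAA, on both strands, was in 0 of the 9 and in 7.02% of all windows. The kappaB motif, in a strict form of 10 bases on both strands, was in 0 of the 9 and in 7.25% of all. TATAAA on the strand of the gene was in 0 of the 9 and in 7.59%. Looser forms of these motifs and sites farther upstream were not searched, so the counts do not show that the genes lack them. Close copies of this kind can share probe signal. The RefSeq table also lists Saa2 as an older name of Saa1 and Saa1 as one of Saa2. Sharing of signal between paralogs was not tested.

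Levels are given as log2 of the processed intensity minus the 75th percentile of the same array, so that 0 is that percentile and a difference of 1 is a doubling. They can be compared between arrays for 1 gene, not between genes. The 75th percentile ran from 83.1 to 211 intensity units over the arrays, and 25429 to 30215 probes were well above background by the mark of the scanner software. All 10 genes were well above background on both hair loss arrays, and 6 of them (Saa1, Lcn2, Hp, Stfa1, Stfa3 and Slpi) on all 8. Saa2 and Saa3 were so on 3 arrays only, the 2 of hair loss and mutant normal skin replicate 3, and passed the filter for testing only through these arrays. Stfa2 was above background on the 6 mutant arrays and Stfa2l1 on 5 of them, so both passed the filter only through mutant arrays. Skin is a mixed tissue, and fewer cells of a type and less RNA per cell cannot be told apart in these values. The number of arrays limits the precision.

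**Figure D1:**
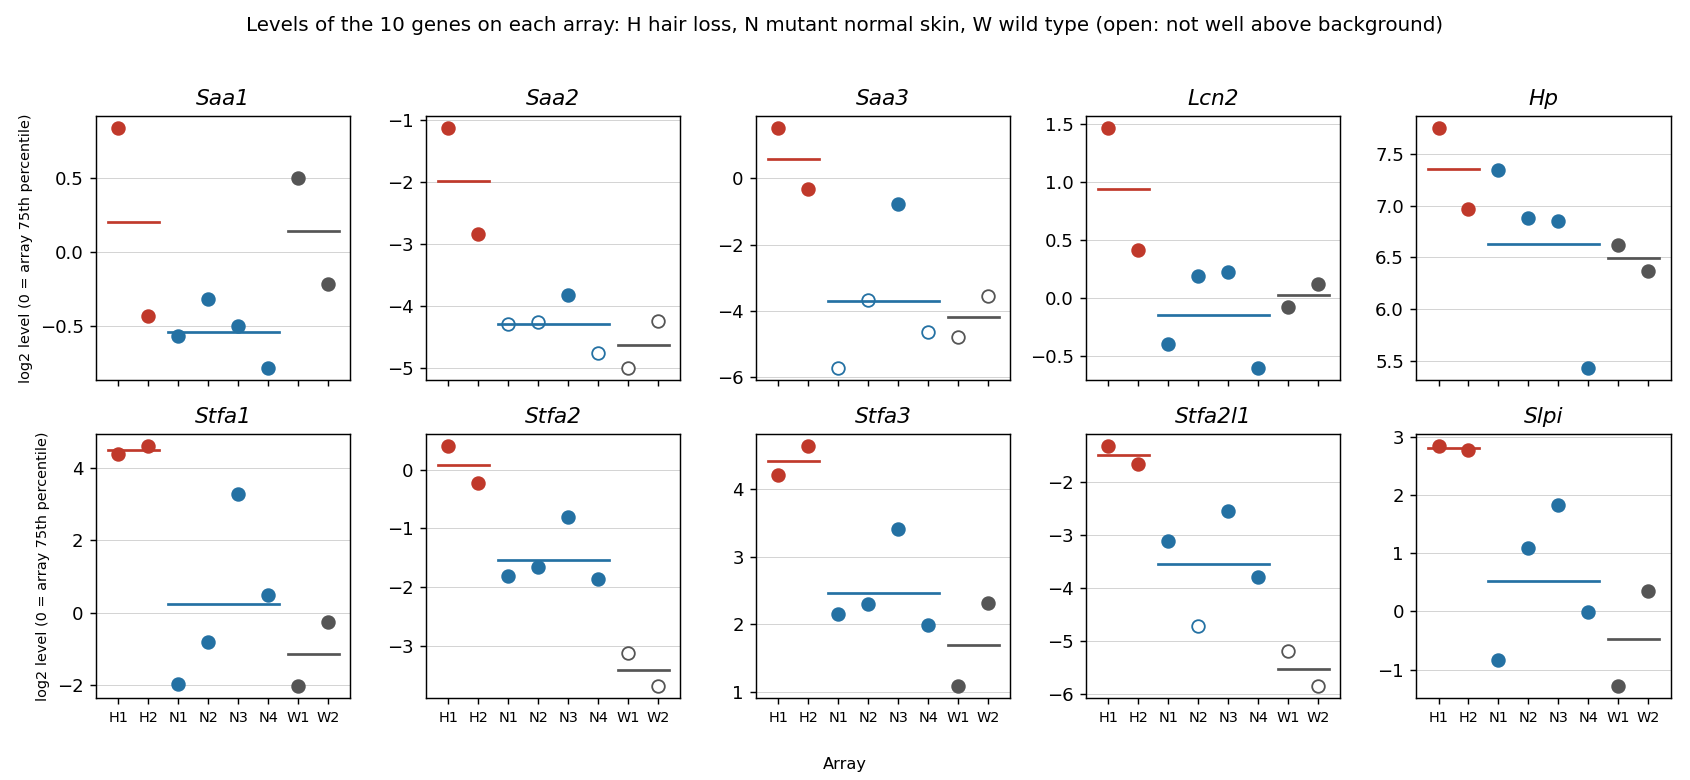
Log2 level of each of the 10 genes (y axis, 0 at the 75th percentile of the array) on the 8 arrays (x axis), with H for hair loss, N for mutant normal skin and W for wild type, lines at the group means and open points where the probe was not well above background. The 2 hair loss arrays are the highest of the 8 for 8 genes, and N3 is the third for the same 8.

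In hair loss skin all 10 genes had a higher mean than in normal mutant skin, and for 8 of them both hair loss samples lay above all 4 normal samples. The median difference was 2.00 on the log2 scale, against -0.01 over all 30427 probes tested. The share of all probes whose hair loss samples lay above the normal ones was 5.73%. Because this contrast chose the genes, nothing follows from these counts. Across all probes limma called 0.0% in this contrast at an adjusted p under 0.05, with 1583 probes at an unadjusted p under 0.05.

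Among the stefins, Stfa1 was at 4.37 and 4.60 in hair loss, at -1.98, -0.82, 3.29 and 0.48 in replicates 1 to 4 of normal mutant skin, and in wild type at -2.04 and -0.25. The groups did not overlap, and normal replicate 3 was the nearest to hair loss. The means differed by 4.24, and the SD was 2.27 in normal skin (n = 4) and 0.16 in hair loss (n = 2).

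Stfa3 was at 4.21 and 4.64 in hair loss, at 2.15, 2.30, 3.41 and 1.99 in normal mutant skin and in wild type at 1.08 and 2.32. Hair loss exceeded normal mutant skin by 1.96, again with normal replicate 3 as the nearest sample. Stfa2 was at 0.40 and -0.23 in hair loss and at -1.80, -1.66, -0.81 and -1.86 in mutant normal skin, a difference of 1.61. On the wild type arrays Stfa2 read -3.12 and -3.69, not well above background. Stfa2l1 was at -1.33 and -1.66 in hair loss and at -3.11, -4.71, -2.55 and -3.78 in mutant normal skin, with replicate 2 at background, a difference of 2.05. On the wild type arrays it read -5.18 and -5.85, at background. The 4 stefins thus ranked the mutant arrays alike at the top, with the hair loss samples first and mutant normal skin replicate 3 next.

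Of the acute phase genes, Saa3 was at 1.51 and -0.33 in hair loss. In mutant normal skin only replicate 3 was above background, at -0.76, and replicates 1, 2 and 4 read -5.73, -3.67 and -4.64. Both wild type arrays were at background, at -4.79 and -3.56. The difference of 4.29 between hair loss and normal mutant skin rests on 3 arrays at background, and normexp, a background correction that compresses values near background, gave 1.67.

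Saa2 was at -1.13 and -2.83 in hair loss and at -3.83 in mutant normal skin replicate 3, and at background on the other 5 arrays, between -5.01 and -4.24. Its difference was 2.31 (0.49 under normexp). Saa1, well above background on every array, was at 0.84 and -0.43 in hair loss and at -0.57, -0.32, -0.50 and -0.79 in mutant normal skin. Wild type was at 0.50 and -0.22. Here hair loss and normal mutant skin overlapped, and only hair loss replicate 1 stood above both wild type samples. The difference was 0.75, and 0.11 without hair loss replicate 1.

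Lcn2, which binds bacterial siderophores, was at 1.47 and 0.42 in hair loss, at -0.39, 0.19, 0.23 and -0.60 in normal mutant skin and in wild type at -0.07 and 0.13. Hair loss was higher than normal mutant skin by 1.09 (SD 0.74 in hair loss, n = 2), by 0.56 without hair loss replicate 1 and by 1.61 without hair loss replicate 2. Hair loss replicate 2 lay just above the highest normal sample. Hp, which binds free haemoglobin, was at 7.75 and 6.96 in hair loss, at 7.35, 6.88, 6.85 and 5.42 in normal mutant skin and in wild type at 6.62 and 6.37. Hair loss replicate 2 lay below normal replicate 1, so the groups overlapped, and the difference was 0.73. It was 0.34 without hair loss replicate 1 and 0.33 without normal replicate 4, the lowest sample.

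Slpi was at 2.83 and 2.77 in hair loss, at -0.83, 1.09, 1.83 and -0.02 in normal mutant skin and in wild type at -1.29 and 0.35. Its hair loss samples agreed within an SD of 0.04, whereas normal skin had an SD of 1.18 (n = 4). The difference between the means was 2.28.

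Leaving out 1 array at a time kept all 10 means higher in hair loss, with a median difference of 1.67 to 2.33. Genes free of overlap numbered 8 to 10, the 10 without hair loss replicate 2, where the share of all probes was also highest (24.4%, against 5.73% with all arrays). The lowest median came without hair loss replicate 1 and the highest without mutant normal skin replicate 3. Without that normal sample, Stfa1 was higher by 5.26, Saa3 by 5.27 and Slpi by 2.72.

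Within each title number the hair loss sample was set beside the 2 normal samples of the same number. In both numbers it lay above both normal samples for 10 of 10 genes, which held for 11.9% of all probes (34.7% within Mutant097 alone and 39.4% within Mutant113). The genes were chosen by this comparison within title number, so nothing follows from these counts either. In Mutant097 the differences ran from 0.64 (Hp) to 6.21 (Saa3), with a median of 2.35. In Mutant113 they ran from 0.21 (Saa1) to 2.72 (Stfa1), with a median of 1.49. Stfa1 differed by 5.77 in Mutant097 and by 2.72 in Mutant113, while Stfa3 differed by 1.99 and 1.94. On the processed signal Saa3 was at least 47.1-fold higher in Mutant097, where its normal skin was at background. That bound does not hold under normexp, where Saa3 was higher by 2.57 in log2. In Mutant113 Saa3 was higher by 2.37 (0.76 under normexp), with 1 of the 2 normal samples at background. Saa2 was at least 8.87-fold higher in Mutant097 and higher by 1.46 in Mutant113, again with 1 normal sample at background. Under normexp its log2 differences were 0.83 and 0.16, so this bound does not hold there either. Each of these values rests on 1 hair loss sample, and the difference between the numbers was not tested. In Mutant113 the hair loss array was on slide row 1 and both normal arrays on row 2, so row and hair loss cannot be told apart there. The Mutant097 arrays were all on row 1.

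**Figure D2:**
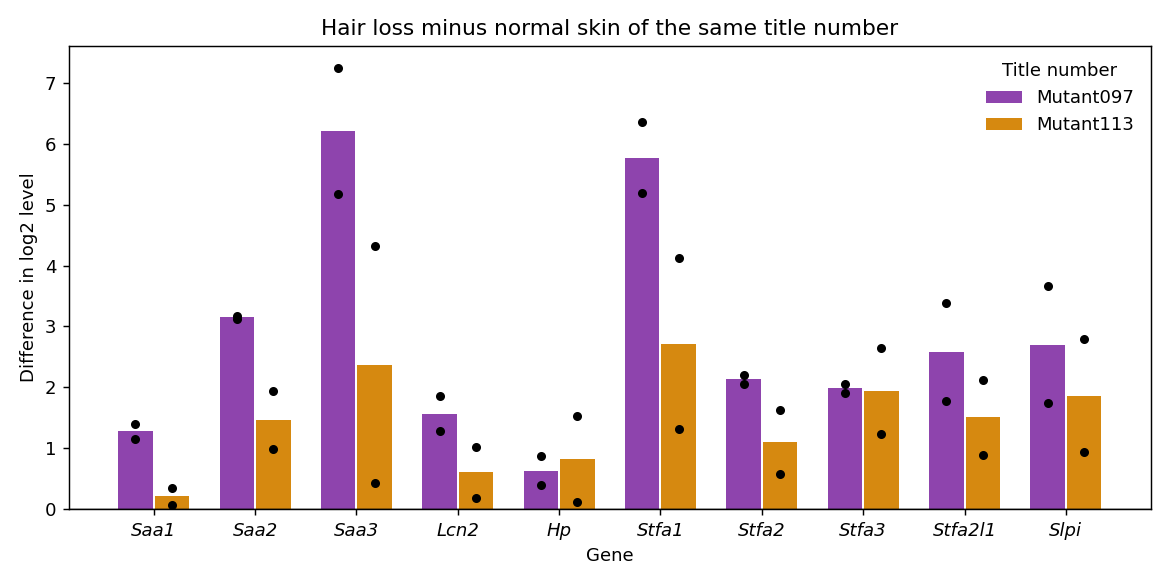
Hair loss minus normal skin of the same title number in log2 level (y axis) for each gene (x axis), as bars at the difference from the mean of the 2 normal samples and points at the difference from each. All bars are above 0, Saa3 and Stfa1 reach 6.21 and 5.77 in Mutant097, and Stfa3 is at 1.99 and 1.94 in the 2 numbers.

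Hair loss skin was also set against wild type skin. This comparison shares the hair loss arrays that chose the genes, so it too is a description. All 10 means were higher in hair loss, by a median of 3.0 (-0.06 over all probes), and 9 genes did not overlap, which held in this direction for 24.7% of all probes. Stfa1 was higher by 5.64, Slpi by 3.27 and Stfa3 by 2.73. For genes at background on the wild type arrays, folds are given as bounds on the processed signal. Saa3 was at least 21.3-fold higher, Stfa2 at least 11.2-fold, Stfa2l1 at least 6.79-fold and Saa2 at least 4.53-fold. These bounds do not hold under normexp, where the log2 differences were 1.69, 1.37, 0.62 and 0.31. For these bounds each wild type array was set at the dimmest level that any clearly detected probe reached on it, or at the probe's own level where that was higher. Hp was higher by 0.86 and Lcn2 by 0.92. Saa1 was higher by 0.06, less than the SD of 0.51 between the wild type samples (n = 2). Both hair loss arrays were on slide row 1 and both wild type arrays on row 2, so row and group cannot be told apart from these arrays alone. With the row as a block, fitted through the mutant normal skin arrays of both rows, 8 of 10 genes were higher. Saa1 was then at -0.14, Hp at -0.12 and Stfa1 at 8.92.

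Skin of the mutants without hair loss was then set against wild type skin, a contrast the choice of genes did not use, although it shares the mutant normal skin arrays. None of the 10 genes passed limma at an adjusted p under 0.05, where 207 of 30427 probes did (0.68%), and 2 genes, Stfa2 and Stfa2l1, had an unadjusted p under 0.05, as 17.2% of all probes did. The median difference of the 10 genes was 0.62, against -0.04 over all probes, and 8 means were higher in the mutants. By their readings, all 4 mutant normal samples lay above both wild type samples for Stfa2 and Stfa2l1. The share of all probes without overlap in that direction was 13.6%. For Stfa2l1, mutant normal skin replicate 2 and both wild type arrays were at background, so their order has no meaning. Saa1 did not overlap in the other direction, where the share was 14.8%.

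Stfa2 and Stfa2l1 passed the filter for testing only through mutant arrays, where they read higher, so their tests are given as a description. Stfa2 exceeded its wild type level by 1.88 in mutant skin (SE 0.35, limma adjusted p 0.0726), at least 3.68-fold on the processed signal with wild type at background. Under quantile normalization it passed the threshold, with a difference of 2.03 (limma adjusted p 0.048), and over all alternatives its adjusted p ran from 0.048 to 0.62. Under normexp its difference was 0.41, so the 3.68-fold bound does not hold there. Stfa2l1 was higher by 1.98 (SE 0.55, limma adjusted p 0.158), at least 1.65-fold with wild type at background and 1 mutant sample at background. Under normexp Stfa2l1 was higher by 0.05, so this bound does not hold there either. Stfa1 was higher by 1.39 (SE 1.29, limma adjusted p 0.613), Stfa3 by 0.76 (SE 0.47, limma adjusted p 0.445) and Slpi by 0.99 (SE 0.75, limma adjusted p 0.528). These 3 values moved with single arrays. Stfa1 was at 0.38 without mutant normal skin replicate 3 and at 2.29 without wild type replicate 2, Stfa3 at 0.15 and 1.38 without wild type replicates 1 and 2, and Slpi at 0.17 and 1.81 likewise. With the slide row as a block Stfa1 was at 3.03. The median of 0.62 moved as well: it was 0.28 without mutant normal skin replicate 3, 1.01 without replicate 1, and with only 1 wild type array it was 0.16 (replicate 1 left out) or 1.24 (replicate 2 left out). In the latter case 6 genes did not overlap, as did 30.6% of all probes.

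Saa1 differed by -0.69 (SE 0.37, limma adjusted p 0.382), with each of the 4 mutant samples below both wild type samples. Hp differed by 0.13 (SE 0.51, limma adjusted p 0.916), Lcn2 by -0.17 (SE 0.36, limma adjusted p 0.835), Saa2 by 0.34 (SE 0.48, limma adjusted p 0.752) and Saa3 by 0.48 (SE 1.26, limma adjusted p 0.872). The wild type samples differed from each other as well, with replicate 2 above replicate 1 by 1.79 for Stfa1, 1.64 for Slpi and 1.23 for Stfa3. A miss of the threshold with 4 and 2 arrays does not show that levels were alike.

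**Figure D3:**
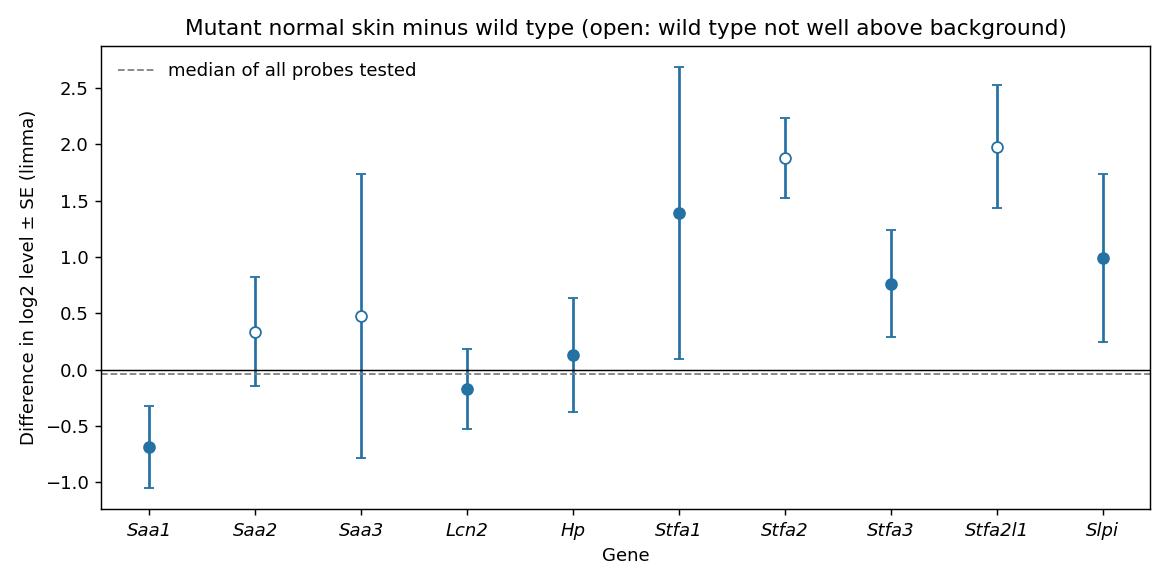
Mutant normal skin minus wild type in log2 level (y axis) for each gene (x axis), points with the limma SE as bars, open where the probe was not well above background on both wild type arrays, and a dashed line at the median of all probes (-0.04). Stfa2 and Stfa2l1 lie farthest from 0, at 1.88 and 1.98.

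Among the normal skin samples of the mutants, replicate 3 (title letter B of Mutant113) was above replicate 4 (letter A of the same number) for 10 of 10 genes, with a median difference of 1.33, where 52.1% of all probes were higher. Saa3 and Saa2 were at background in replicate 4, so their differences of 3.88 and 0.94 rest on values at background. Stfa1 differed by 2.82 between these samples, Slpi by 1.85, Hp by 1.42, Stfa3 by 1.42, Stfa2l1 by 1.23 and Stfa2 by 1.05. In Mutant097 only Hp and Stfa2l1 were higher in B than in A (47.6% of all probes), and the median was -0.20. In the wild type 4 genes were higher in B (49.4% of all probes), with a median of -0.48. Values at background in both samples have no order, which applies to Saa2 and Saa3 in Mutant097 and to Saa2, Saa3, Stfa2 and Stfa2l1 in the wild type. The labels do not explain the letters, and with 1 sample each the differences have no replicate check.

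**Figure D4:**
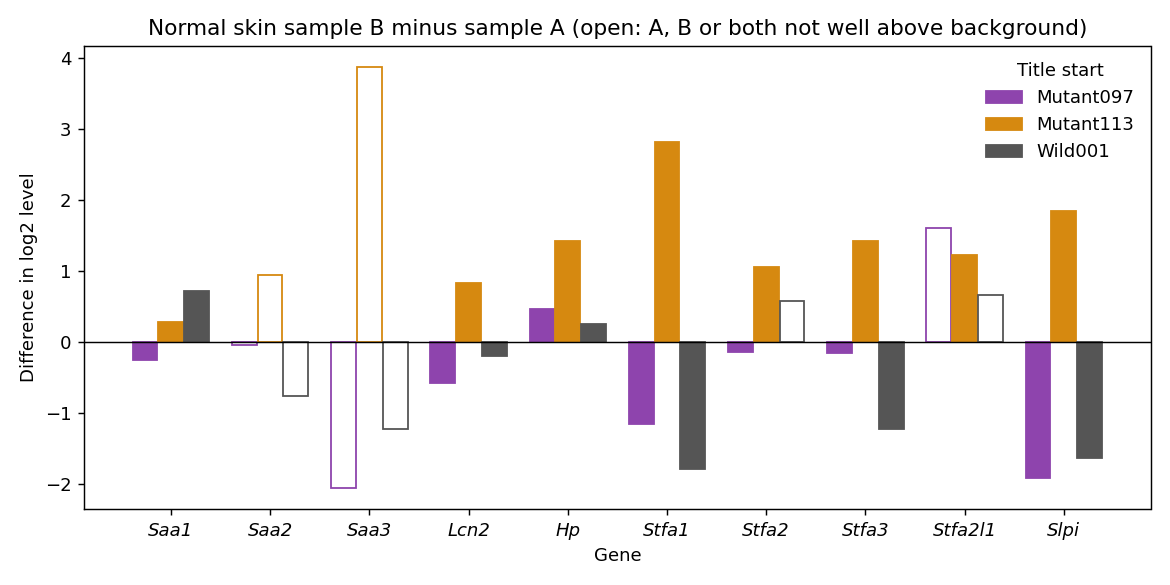
Normal skin sample B minus sample A in log2 level (y axis) for each gene (x axis), with 1 bar for each title start, open where A, B or both were not well above background. All Mutant113 bars lie above 0, up to 3.88 for Saa3, whereas Mutant097 and Wild001 bars lie on both sides.

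Between the title numbers, normal skin of Mutant113 was compared with that of Mutant097 in a model with 1 mean per group and number. Limma called 0 of the 10 genes, and 0.266% of all probes. Stfa1 was the only one with an unadjusted limma p under 0.05, as 15.8% of all probes had. It was higher in Mutant113 by 3.28 (SE 1.08, limma adjusted p 0.258), and both Mutant113 samples lay above both Mutant097 samples, as for 24.1% of all probes. Hp lay the other way, by -0.98 (SE 0.48, limma adjusted p 0.395), without overlap, as for 31.9% of all probes. Slide row and title number cannot be told apart here, because the normal skin of Mutant097 was on row 1 and that of Mutant113 on row 2. This contrast is also confounded with sex-linked expression, whose part was not tested.

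Over the 8 arrays the 10 genes gave pairwise Pearson correlations of 0.09 to 0.95, with a median of 0.72, and the 6 pairs of stefins 0.80 to 0.95. Stfa2 and Stfa2l1, the pair with the most similar upstream windows among the stefins, had the highest value. Both were at background on the wild type arrays, and sharing of signal between their probes was not tested. These 8 arrays share the group structure that chose the genes, so the values are descriptive. Of 14187 other genes, those most like Stfa1 were Krt16 (r = 0.99), a keratin of stressed epidermis, Abcg1 (0.98), Lce3c (0.98), Gba2 (0.98) and Lce3b (0.98). Lce3b and Lce3c encode late cornified envelope proteins. Krt16 was at 6.26 and 5.76 in hair loss, at 1.59, 2.60, 5.94 and 3.32 in normal mutant skin and in wild type at 1.28 and 2.76, so the same normal sample was high. Most like Saa3 were Srxn1 (0.99), Ctsl (0.97), Zbtb43 (0.96), Ctsb (0.96) and Cpe (0.96). Ctsl and Ctsb encode cathepsins L and B. Most like Lcn2 were Calr4 (0.97), Zbtb9 (0.96), Pdss1 (0.95), Tex264 (0.94) and Eno1b (0.94).

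A list of cathepsins and related proteases was measured by 11 genes. Most are papain-like cysteine proteases, the class that stefins inhibit, but Ctsa and Lgmn are not. In hair loss 9 of 11 had a higher mean than in normal mutant skin, with a median of 0.45, and 0 passed limma. Ctsb was at 7.45 and 7.02 in hair loss and between 6.50 and 7.17 in mutant normal skin, a difference of 0.52. Ctsl was higher by 0.60 and Ctsa by 0.47, whereas Ctsh differed by -0.10 and Ctsk by 0.10. Against wild type 8 of 11 were lower in mutant normal skin and 0 were called. Between the numbers, Ctsk, the cathepsin of matrix breakdown, was lower in Mutant113 by 2.47 and was the 1 gene of this list that limma called (adjusted p 0.0344).

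Of 11 other cystatins, 8 were tested. In hair loss 7 of 8 were higher, by a median of 0.69, and 0 were called. Cstb, the stefin B gene, was at 6.21 and 6.05 in hair loss, at 4.64, 4.84, 6.05 and 4.82 in normal mutant skin and in wild type at 4.14 and 4.85. Normal replicate 3 was level with the lower hair loss sample. Cstdc5, inside the stefin cluster, was at 5.88 and 5.89 in hair loss and between 4.72 and 5.23 in mutant normal skin. Cst6 was higher by 0.63, and Cst3 and Cst7 differed by 0.04 and -0.05.

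Of 15 inducing cytokines, 4 were tested. Genes for interleukins 17A, 17F and 22 were among those not tested. In hair loss Il1b was higher by 0.64, Il6 by 1.07 and Il11 by 0.21, and Tnf differed by -0.32, with 0 called. Il6 was above background on 4 arrays, those of hair loss and the normal skin of Mutant113. Of 15 receptor and signalling genes tested, 8 had a higher mean, by a median of 0.06, and 0 were called. Cebpb, a C/EBP factor, was higher by 0.52, while Il6ra, Il17rc, Nfkbia and Rela differed by -0.35 to 0.08.

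Other genes of the acute phase and of the responses to interleukins 6 and 17 numbered 20 tested, and 14 were higher in hair loss, by a median of 0.33, with 0 called. The 5 brightest, Fth1, C3, Lrg1, Cfb and Orm2, differed by -0.61 to 0.17. Of receptors and partners, 9 were tested, 5 were higher and the median was 0.02, and Cd163, the haemoglobin-haptoglobin receptor of macrophages, differed by -0.83. For the proteases that Slpi holds and other skin antiproteases 10 of 16 were higher, by a median of 0.16. In mutant normal skin against wild type limma called 0 genes in each of these lists, beside 0.68% of all probes.

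Genes of stressed epidermis had their high values on the same arrays as the stefins. The mean level of 8 such genes (Sprr1a, Sprr1b, Sprr2d, Sprr2h, Krt6a, Krt6b, Krt16 and Krt17) was 4.76 and 4.32 in hair loss, 0.66, 1.43, 4.43 and 2.51 in normal mutant skin, and in wild type -0.11 and 0.74. All 8 were higher in hair loss than in normal mutant skin, by a median of 2.16, and 0 were called. Mutant normal skin replicate 3 stood with the hair loss samples here as well. The part of this epidermal state in the values of the 10 genes was not tested.

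Markers of other cell types were read beside these results. Of 14 neutrophil genes 9 were tested, with mean levels of -0.32 and -0.36 in hair loss, -0.98 to -0.51 in normal mutant skin, and in wild type -0.45 and 0.18. By these means both hair loss samples lay above all 4 samples of normal mutant skin, and wild type lay on both sides of hair loss. The genes did not move together. In hair loss 5 of the 9 were higher than in normal mutant skin and 4 lower, by a median of 0.17. Only 2 were higher without overlap, as were 5.73% of all probes. S100a8 and S100a9, among those higher, are also counted with the acute phase genes above. Mmp8, Ltf, Ngp and Cd177, granule and surface proteins of mature neutrophils, were not above background on 2 arrays. The 6 macrophage genes averaged 1.75 and 2.08 in hair loss, 1.62 to 2.32 in normal mutant skin, and in wild type 2.79 and 2.94. Keratinocyte genes (7) averaged 6.80 and 6.75 in hair loss, above 6.42 to 6.60 in normal mutant skin, and in wild type 6.01 and 6.35. Of these 7, 4 were higher in hair loss than in normal mutant skin and 3 lower, by a median of 0.11. Fat cell genes (7) averaged 3.90 and 4.55 in hair loss, 3.96 to 4.53 in normal mutant skin, and in wild type 3.85 and 3.86. Of 7 liver genes, Alb, Apoa1, Ttr, Fga and Fgb were not above background on 2 arrays. Apoa2 and Serpina1a were the 2 tested, at means of 1.60 and 1.17 in hair loss and 0.19 to 1.59 in mutant normal skin. They moved in opposite directions between these groups, Apoa2 by -0.29 and Serpina1a by 1.29. Sebaceous gland genes (5) averaged 1.34 and 1.80 in hair loss and 0.64 to 1.38 in mutant normal skin. Skeletal muscle genes (6) averaged 5.35 and 4.20 in hair loss and 5.23 to 6.89 in mutant normal skin. Hair shaft and root sheath genes (8) averaged 8.39 and 7.10 in hair loss, 5.35 to 7.72 in normal mutant skin, and in wild type -1.66 and -3.23. All 8 were called higher in normal mutant skin than in wild type (limma, smallest adjusted p 0.00372). The part of these shifts in the results was not tested.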

How the data were processed

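The authors hybridised Cy3-labelled cRNA of 8 skin samples to 1 slide of Agilent arrays. Per the file headers, the deposited intensity was extracted with Agilent Feature Extraction 11.5.1.1, which corrected it for background within each array. The authors' deposited matrix holds log2 values, and for all 55603 probes compared these lay within 0.01 of the log2 intensity minus 1 constant per array.

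Non-control spots not marked as outliers were averaged per probe, and the 75th percentile of the array was subtracted. Probes well above background on at least 2 arrays were tested (30427). Symbols came from a RefSeq table (GRCm38.p6); coordinates are given only for the upstream windows, in that build, since the array design names mm9. Tests were two-sided, by limma 3.58.1 (R 4.3.3), with Benjamini-Hochberg adjustment over all probes and calls at an adjusted p under 0.05. The scripts were tested on simulated data.

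The members and lists were chosen with earlier results of these data known. Named genes were all members, up to 5 of the brightest genes of each list, and the 5 genes most correlated with Saa3, Stfa1 and Lcn2. Genes outside this rule that are named (Cd163 among them) were chosen after their values were seen. Alternatives were another background correction (normexp, offset 50, on median signals), quantile normalization, the deposited matrix, other filters, each array left out, and blocks for title number and slide row.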

Additional observations from a re-analysis of the deposited data

How the results depend on the processing

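Counts of called probes moved most. Between mutant normal skin and wild type, 207 probes became 128 with no filter, 856 with the slide row as a block (48.4% higher in the mutants, against 83.6%) and 0 with 1 mean per title number and group, and 0 to 191 with 1 array left out. Those counts were 116 and 75 without mutant normal skin replicates 3 and 4, and 10 and 0 without wild type replicates 1 and 2. Members called were 1 (Stfa2) under quantile normalization and 0 under every other alternative. Between the title numbers, 81 probes became 465 under normexp (69.5% higher in Mutant113, against 59.3%), 146 under quantile normalization and 19 with no filter, and 6 to 99 with 1 array left out. They were 12, 6 and 8 without mutant normal skin replicates 1, 3 and 4. Hair loss against mutant normal skin gave 0 to 11 probes with 1 array left out, 9 without hair loss replicate 2 and 11 without mutant normal skin replicate 3.

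Differences that changed sign, none of them called, were these. For mutant normal skin minus wild type, Saa2 was at -0.18 under normexp and ran from -0.049 without wild type replicate 1 to 0.72 without replicate 2. Saa3 ran from -0.50 without mutant normal skin replicate 3 to 1.15 without replicate 1, and was at -0.14 without wild type replicate 1. Hp ran from -0.11 without mutant normal skin replicate 1 to 0.53 without replicate 4, and was at -0.36 with the slide row as a block. For Mutant113 minus Mutant097, leaving out 1 normal array took Saa2 from -0.49 (without replicate 3) to 0.45 (4), Stfa2 from -0.13 (3) to 0.92 (4), Stfa3 from -0.24 (3) to 1.18 (4), Stfa2l1 from -0.061 (2) to 1.54 (1) and Slpi from -0.19 (1) to 1.73 (2). Slpi was also at -0.15 without replicate 3, and Lcn2 was at 0.21 and 0.33 without replicates 2 and 4. The causes were not tested beyond the fewer arrays.

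The genes stayed higher in hair loss than in mutant normal skin under each alternative that tested them (8 of 8 with the filter of 4 arrays, which leaves out Saa2 and Saa3, and 10 of 10 elsewhere), Stfa1 between 3.50 and 5.88 and Saa3 between 1.67 and 5.29. Against wild type, Saa1 ran from -0.57 to 0.70. With the title number as a replicate block hair loss against mutant normal skin gave 0 probes, and the differences were those without the block because the numbers are balanced. Deviations from the group means correlated at 0.13 over probes between samples of the same number, with only 2 numbers. Each gene has 1 probe, so averaging probes changed nothing. The planned normexp on mean spot signals was not run, because the files hold median signals, which were used in its place after the files were seen. Signal near background limits Saa2, Saa3, Stfa2 and Stfa2l1.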

Other observations

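Some genes of the same response were chosen after their values were seen. Chil1, a chitinase-like protein, was at 1.67 and 1.46 in hair loss, at -0.92, -1.10, 1.0 and -1.17 in mutant normal skin and at -2.51 and -2.53 in wild type. Mutant normal skin replicate 3 was again the nearest to hair loss. Defb4, a beta-defensin, was above background on 3 arrays, at -2.45 and -3.02 in hair loss and -2.63 in mutant normal skin replicate 3, the same 3 arrays as Saa2 and Saa3. The calprotectin subunits did not separate the groups as far. S100a8 was at 1.47 and 1.03 in hair loss and between -1.09 and 1.16 in mutant normal skin, and S100a9 at 2.86 and 2.47 and between 0.87 and 2.40.

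Serpina3n, an acute phase antiprotease, lay the other way between genotypes. It was at 2.35 and 1.67 in wild type and between 0.47 and 0.81 in mutant normal skin, a difference of -1.37 (SE 0.23, limma adjusted p 0.0522) that did not pass the threshold. In hair loss it was at 0.91 and 1.06. Wfdc12, a relative of Slpi, ranged from -1.89 to 2.72 over the 8 arrays without following the groups.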
